A study of Mus musculus with 6 samples.

Results

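The 10 genes described here encode structural filament proteins of the mouse cell. They are the cytoplasmic intermediate filament genes Vim, Des and Nes, the simple-epithelial keratin genes Krt7, Krt8, Krt18 and Krt19, and the nuclear lamin genes Lmna, Lmnb1 and Lmnb2. They were chosen by gene symbol, as a named gene family and with earlier results of these data known, from the 16279 genes listed in either of 2 bulk RNA-seq count tables. All 10 were listed in both tables, and all 10 were among the 12471 genes that passed a filter on low counts and were tested. Of these 10 genes, 8 were higher and 2 were lower in cardiac precursor cell cultures than in embryonic stem cells, and the libraries of the cell types did not overlap for any of them. Among all genes tested, 61.4% passed the same threshold (31.7% higher and 29.7% lower in the cardiac precursor cultures), and 69.7% had groups that did not overlap.

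The study compared male F1 mouse embryonic stem cells (mESCs, strain C57BL/6 x CAST/EiJ in the labels, from C57BL/6J mothers and CAST/EiJ fathers) with cardiac precursor cell cultures (CPCCs) grown from those mESC clones, with 3 libraries of each. Every mESC line was a clone from a single cell of a blastocyst-derived line, kept without feeder cells on gelatin in serum with LIF and 2 inhibitors (2i). The CPCCs were obtained through hanging drops, embryoid bodies and ascorbic acid, then grown in medium with EGF and Fgf2 to the fourth passage. They are mixed cultures of cardiac stem and progenitor cells with other cell types, so each CPCC value is a level over a mixture, in which more cells of a type and more RNA per cell cannot be told apart. The male F1 genotype and the polyA-selected cDNA protocol are shared by both groups. The libraries are named S01 to S03 (mESC) and S04 to S06 (CPCC) after their columns, which carry no clone number, so no CPCC library was matched to its parent clone.

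Library totals were between 6442639 and 6907330 estimated counts for mESCs and between 8468819 and 11436062 for CPCCs, and the deepest library was S04. The pluripotency markers Pou5f1, Nanog, Sox2, Zfp42, Esrrb and Klf4 summed to between 2017 and 2568 CPM (counts scaled to a library of 1000000) in mESCs and to between 104 and 169 in CPCCs. Of 10 cardiac markers, 9 were listed in CPCCs, at a summed level of 168 CPM in S04, 48.6 in S05 and 68.5 in S06, against 10.7 to 17.4 in mESCs, where 5 were listed. Nkx2-5, Mef2c, Hand1, Hand2 and Myh6 were listed only in CPCCs, with Nkx2-5 at 0 in S05, and Tbx5 only in mESCs. Of the 4 cardiac markers that could be tested, 1, Tnnt2, passed the threshold, and it rose. Fibroblast markers, collagen genes among them, summed to between 6031 and 9167 CPM in CPCCs and to at most 17.3 in mESCs. Levels below are normalized CPM, that is, CPM scaled with edgeR's TMM factors. Differences are log2 fold changes of CPCC over mESC from edgeR's quasi-likelihood test, each with its standard error (SE) and a p-value adjusted over all genes tested. These p-values measure the spread among the 3 libraries of a cell type.

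Intermediate filaments are rope-like polymers of coiled-coil proteins, more elastic than actin filaments or microtubules, and different cell types build them from different genes. Vim is typical of mesenchymal cells, Des of muscle, Nes of many stem and progenitor cells, and keratins of epithelia, where a type II keratin (Krt7, Krt8) pairs with a type I keratin (Krt18, Krt19). The lamins line the inner nuclear membrane. B-type lamins (Lmnb1, Lmnb2) are made by nearly all cells, whereas A-type lamins, the products of Lmna, are low in pluripotent cells and are known to scale with tissue stiffness. In the heart, Des links the sarcomere to the membrane and the nucleus, and mutations of DES and LMNA cause cardiomyopathy.

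Promoter sequence of 5 of the genes is given because they mark the ends of the pattern below. Vim had the highest level per length, Krt8 and Krt18 the largest fold changes, and Lmna and Lmnb2 changed in opposite directions. Each run holds the 250 bases before the RefSeq start on GRCm38.p6, read 5′ to 3′ on the strand of the gene. The positions are chr2:13574061-13574310 (plus strand) for Vim, chr15:102004343-102004592 (minus strand) for Krt8, chr15:102027966-102028215 (plus strand) for Krt18, chr3:88503353-88503602 (minus strand) for Lmna and chr10:80918246-80918495 (minus strand) for Lmnb2. Capitals mark TATAAA, the core of the TATA box, and GGGCGG, the GC box, which reads CCGCCC where it lies on the other strand.
Vim: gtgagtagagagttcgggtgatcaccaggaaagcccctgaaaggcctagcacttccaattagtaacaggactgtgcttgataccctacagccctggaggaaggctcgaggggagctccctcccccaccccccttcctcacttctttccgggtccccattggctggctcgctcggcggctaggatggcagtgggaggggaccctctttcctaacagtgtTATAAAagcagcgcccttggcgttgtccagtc
Krt8: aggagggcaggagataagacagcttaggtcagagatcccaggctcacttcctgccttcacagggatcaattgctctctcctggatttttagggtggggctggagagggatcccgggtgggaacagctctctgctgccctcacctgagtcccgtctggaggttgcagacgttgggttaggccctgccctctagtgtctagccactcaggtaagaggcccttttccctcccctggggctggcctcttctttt
Krt18: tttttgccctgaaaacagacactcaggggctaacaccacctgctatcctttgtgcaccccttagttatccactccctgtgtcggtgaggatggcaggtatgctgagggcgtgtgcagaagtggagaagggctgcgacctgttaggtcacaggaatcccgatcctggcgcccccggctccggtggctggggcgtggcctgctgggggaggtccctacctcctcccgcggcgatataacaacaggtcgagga
Lmna: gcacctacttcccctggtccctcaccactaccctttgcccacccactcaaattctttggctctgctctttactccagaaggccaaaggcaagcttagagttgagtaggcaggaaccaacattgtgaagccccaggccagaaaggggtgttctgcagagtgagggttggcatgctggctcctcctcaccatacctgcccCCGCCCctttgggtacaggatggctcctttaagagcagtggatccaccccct
Lmnb2: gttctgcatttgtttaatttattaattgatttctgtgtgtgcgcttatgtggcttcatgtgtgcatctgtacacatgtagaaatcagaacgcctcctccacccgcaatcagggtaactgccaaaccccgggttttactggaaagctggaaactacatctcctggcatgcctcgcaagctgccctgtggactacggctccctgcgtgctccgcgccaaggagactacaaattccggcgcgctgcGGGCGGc

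The RefSeq promoter table held 8 of the 10 genes, all but Krt19 and Lmnb1. Vim was the only one of the 8 with TATAAA, whose first base lay 32 bases before the start. That motif was in 12.4% of all 32851 promoters of the same length. GGGCGG occurred in 32.7% of all promoters, and among these genes it occurred 4 times for Krt7, 2 times each for Des and Nes, and 1 time each for Lmna and Lmnb2. Its first base lay 52 bases before the Lmna start on the minus strand of the gene and 7 bases before the Lmnb2 start. The pair Krt8 and Krt18 held neither motif. CANNTG, the E-box, was in 66.2% of all promoters, and it was found 2 times for Krt8, 2 times for Des, 1 time each for Krt7 and Krt18, 4 times for Lmnb2 and in none of Vim, Nes and Lmna at these starts. TGANTCA, the AP-1 site, and the CArG box of serum response factor were in 6.75% and 1.47% of all promoters and in none of these windows. All motifs were searched on both strands, and E-boxes are left in lower case. Krt8 and Krt18 lie head to head on chromosome 15, on opposite strands, with 23874 bases between their starts.

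The first comparison asked how the mesenchymal, muscle and progenitor filament genes differed between the cell types. Vim, Nes and Des all rose in CPCCs. Vim (chr2:13574311-13582827) was at 89.3 (S01), 90.8 (S02) and 119 (S03) normalized CPM in mESCs and at 3570 (S04), 2974 (S05) and 2327 (S06) in CPCCs, and the same library order is kept for the values below. Every CPCC library was thus far above every mESC library, and the lowest of CPCC was 19.6 times the highest of mESC. The mean rose from 99.6 ± 16.5 to 2957 ± 621 normalized CPM (SD, n = 3 each), a log2 fold change of 4.89 (SE 0.23) or 29.7-fold, with an adjusted p of 1.48e-06 in edgeR's test. Vim ranked 261st from the top among the log2 fold changes of all genes tested. In every CPCC library its level per exon length lay at the percentile 99.9 of the listed genes that had an exon length.

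Nes (chr3:87971093-87980452), which encodes nestin, a large filament protein that needs vimentin or another partner to polymerize, was at 11.0, 14.4 and 17.8 normalized CPM in mESCs. In CPCCs it was at 336, 410 and 329. Its spread in CPCCs was narrow and the order of the libraries differed from that of Vim, with S05 highest. The means were 14.4 ± 3.44 and 358 ± 44.7 normalized CPM (SD, n = 3 each), a log2 fold change of 4.63 (SE 0.23), with an adjusted p of 1.82e-06 in edgeR's test.

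Des (chr1:75360292-75368580), the muscle filament gene, was far lower than either per exon length. It was at 1.39, 1.77 and 4.24 normalized CPM in mESCs, from 9, 12 and 29 counts, and at 47.0, 19.2 and 24.1 in CPCCs. The groups did not overlap, and S04 stood above the other CPCC libraries. Its log2 fold change was 3.60 (SE 0.51), or 12.1-fold, with an adjusted p of 0.000309 in edgeR's test, and it was 4.24 without S03. S04 was also the library with the highest summed cardiac markers, while of 4 skeletal muscle markers only Myog was listed, at 0.849 to 2.06 CPM in CPCCs. An antisense gene, Gm15179, shares 220 exon bases, 7.27% of the exon length of Des, and the library kit does not mark strand.

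**Figure D1:**
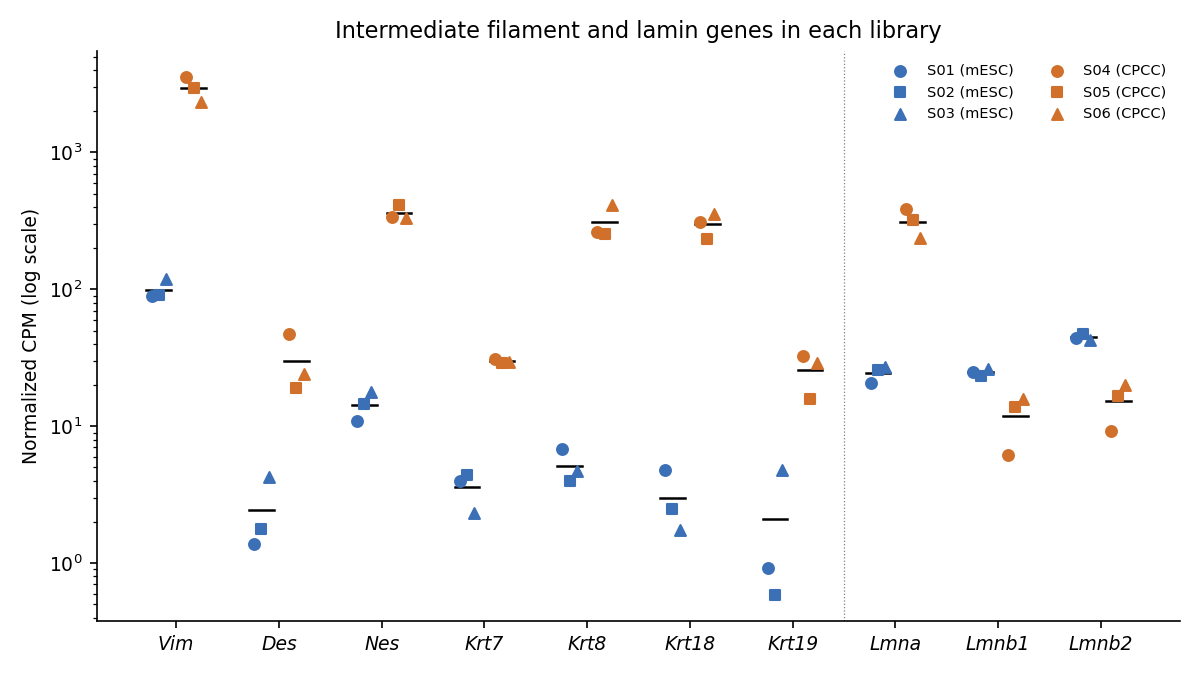
Normalized CPM (log scale) of the 10 genes in each of the 6 libraries, with mESC libraries in blue, CPCC libraries in orange and the mean of the 3 libraries of a cell type as a black bar. The CPCC libraries lie above the mESC libraries for Vim, Des, Nes, the 4 keratins and Lmna and below them for Lmnb1 and Lmnb2, with no overlap.

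The second comparison concerned the keratins, the filament genes of simple epithelia. All 4 rose in CPCCs, and the pair Krt8 and Krt18 had the largest fold changes of the 10 genes. Krt8 (chr15:101996711-102004343) was at 6.80, 3.97 and 4.68 normalized CPM in mESCs, from 44, 27 and 32 counts, and at 260, 255 and 415 in CPCCs. S06 stood above the other CPCC libraries, and the lowest CPCC library was still 37.4 times the highest mESC library. The mean rose from 5.15 ± 1.47 to 310.1 ± 91.2 normalized CPM (SD, n = 3 each), a log2 fold change of 5.91 (SE 0.31) or 60.2-fold, with an adjusted p of 2.1e-06 in edgeR's test. Of the 75-base stretches in annotated Krt8 transcripts, 22% also occur in the pseudogene Krt8-ps, so reads there can be split or lost. Krt8-ps is listed in neither table.

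Krt18 (chr15:102028216-102032027), the type I partner of Krt8, was at 4.79, 2.50 and 1.76 normalized CPM in mESCs, from only 31, 17 and 12 counts. In CPCCs it was at 308, 232 and 354. Again S06 was the highest, and no CPCC library came near the mESC values. The log2 fold change was 6.63 (SE 0.37), or 98.8-fold, with an adjusted p of 2.44e-06 in edgeR's test, which placed Krt18 66th from the top of all genes tested.

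Krt7 and Krt19, a type II and a type I keratin of ducts and other simple epithelia, were much lower per exon length in CPCCs than Krt8 and Krt18. Krt7 (chr15:101412403-101427807) was at 4.02, 4.41 and 2.34 normalized CPM in mESCs and at 30.9, 29.0 and 29.5 in CPCCs. These 3 CPCC values were the most even of any of the 10 genes, with a coefficient of variation of 3.38%. The log2 fold change of Krt7 was 3.05 (SE 0.30), with an adjusted p of 4.02e-05 in edgeR's test. Krt19 (chr11:100140811-100145927) was at 0.927, 0.588 and 4.83 normalized CPM in mESCs, from 6, 4 and 33 counts, so S03 stood apart from the other mESC libraries. In CPCCs it was at 32.5, 15.8 and 29.1. Its log2 fold change was 3.59 (SE 0.66), with an adjusted p of 0.00137 in edgeR's test, and it was 5.07 without S03.

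The largest CPCC values of Krt8 and Krt18 were in S06, and so was the highest summed level of 6 epithelial markers, at 419 CPM against 120 in S04 and 171 in S05. In mESCs those markers summed to between 473 and 714 CPM, although the keratins were low there. Among the epithelial markers that could be tested, Cldn6 and Cldn7 rose and Cdh1 fell in CPCCs, with 2 higher and 1 lower of 5. Of the trophectoderm markers, Cdx2 and Elf5 were listed in neither table, and the whole list summed to 76.5 to 85.8 CPM in mESCs, most of it Tfap2c, and 19.3 to 46.9 in CPCCs. Tfap2c and Eomes fell, Gata3 rose, to 38.4, 13.3 and 8.82 CPM in CPCCs, and Plac1 was listed only in CPCCs. Summed endoderm markers were 54.9 to 58.2 CPM in mESCs and 277 to 317 in CPCCs, with Afp and Ttr in neither table. Most of the CPCC sum was Dab2, at 188, 120 and 98.9 CPM, and Lama1, at 71.7, 134 and 138. Sox17 was at 7.75, 0.728 and 7.11 CPM there. Of the 5 endoderm markers tested, 4 rose (Foxa2, Gata6, Dab2 and Lama1), and Sox7 did not pass the threshold. Summed mesothelial markers were lower in CPCCs, at 10.9 to 19.6 CPM, than in mESCs, at 31.7 to 40.0, a sum carried by Msln and Lrrn4 in mESCs, of which Msln passed the threshold. Upk1b, in contrast, was listed only in CPCCs, at 12.9 CPM in S04, and Wt1 was at 0.802 to 1.89 CPM in CPCCs and 0.146 to 1.18 in mESCs. The part of these cell types in the keratin levels was not tested.

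Within the keratins, the balance moved towards Krt8 and Krt18. Together they made up 70.1%, 56.4% and 47.3% of the keratin counts of the mESC libraries, against 90.0%, 91.6% and 92.9% for CPCCs. The means were 57.9 ± 11.5% and 91.5 ± 1.48% (SD, n = 3 each), and the groups did not overlap. An exact two-sided permutation test gave p = 0.10, the smallest value that 3 against 3 libraries allow. Since Krt8 and Krt18 are the usual partners in simple epithelia, although each can also pair with other keratins, their ratio was followed too. The log2 ratio of Krt8 to Krt18 counts was 0.51, 0.67 and 1.42 in the mESC libraries, where both counts were low, and -0.24, 0.14 and 0.23 in the CPCC libraries. The mean log2 ratio was 0.86 ± 0.49 in mESCs and 0.04 ± 0.25 in CPCCs (SD, n = 3 each, exact permutation p = 0.10), which corresponds to ratios of 1.82 and 1.03. These counts were not divided by length, so only the change between the cell types is read.

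The share of Vim in the summed counts of the 7 cytoplasmic filament genes was 75.6%, 76.7% and 76.9% in mESCs and 77.9%, 75.6% and 66.3% in CPCCs. These shares overlapped between the cell types, although the summed level of the 7 genes went from 130.3 ± 20.8 to 4009 ± 542 normalized CPM (SD, n = 3 each). The difference of -3.09 percentage points had an exact permutation p of 0.70, and without S06 it was 0.376. The lower share in S06 stood beside a keratin share of 23.6%, against 13.8% in S04 and 13.5% in S05. With counts divided by exon length, an alternative added after the data were seen, the difference was -7.55 percentage points. The shares per length did not overlap, and the exact permutation p was 0.10, the smallest that 3 against 3 libraries allow. Summed fibroblast markers, which like Vim are typical of mesenchymal cells, were 7310, 9167 and 6031 CPM in S04, S05 and S06, an order other than that of Vim. Summed markers of neural cells, a further source of Nes and Vim in mixed cultures, were 239, 191 and 252 CPM there and at most 35.2 in mESCs. Most of each sum was Tubb3, at 215, 118 and 133 CPM in the CPCC libraries. The other neural markers listed, Sox1, Pax6, Map2 and Elavl3, were each lowest in S04 and highest in S06 among CPCCs. Summed endothelial markers were lower in CPCCs, at 11.8 to 23.9 CPM, than in mESCs, at 92.3 to 101, a sum that was mostly Pecam1, at 86.0 to 94.3 CPM in mESCs. Cdh5 and Kdr went the other way and were listed only in CPCCs, with Cdh5 at 12.5 CPM in S04. Their part in the levels was not tested.

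**Figure D2:**
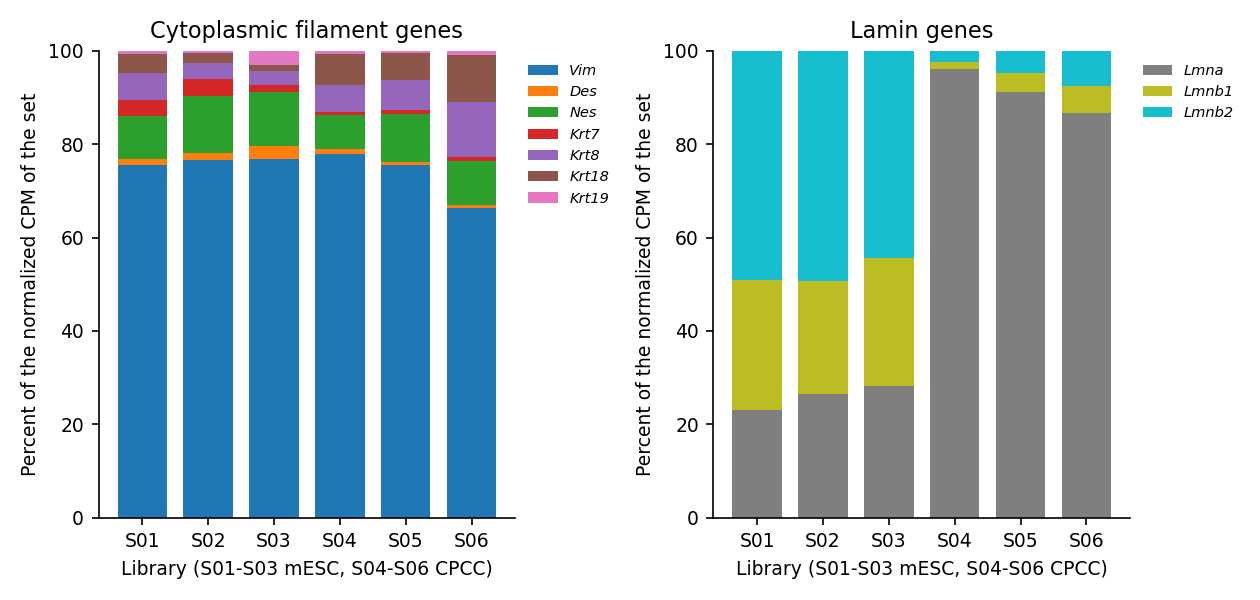
Percent of the summed normalized CPM of the 7 cytoplasmic filament genes (left) and of the 3 lamin genes (right) that each gene contributed in each library, with S01 to S03 from mESCs and S04 to S06 from CPCCs. Vim holds between 66.3% and 77.9% of the cytoplasmic set in every library, while Lmna holds 23.1% to 28.3% of the lamin set in mESCs and 86.7% to 96.2% in CPCCs.

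The third comparison set A-type against B-type lamins. Lmna rose in CPCCs, and both B-type lamin genes fell. Lmna (chr3:88481148-88503353), which encodes lamins A and C, was at 20.7, 25.6 and 27.2 normalized CPM in mESCs and at 384, 318 and 235 in CPCCs. All CPCC libraries were far above all mESC libraries, with S04 the highest and S06 the lowest. The mean rose from 24.5 ± 3.39 to 313 ± 74.7 normalized CPM (SD, n = 3 each), a log2 fold change of 3.67 (SE 0.24) or 12.7-fold, with an adjusted p of 4.48e-06 in edgeR's test.

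Lmnb2 (chr10:80901363-80918246) was at 43.9, 47.4 and 42.7 normalized CPM in mESCs, a narrow range. In CPCCs it was at 9.25, 16.6 and 20.2, all below the mESC libraries. The means were 44.7 ± 2.42 and 15.3 ± 5.57 normalized CPM (SD, n = 3 each), a log2 fold change of -1.54 (SE 0.29), or 2.91-fold lower, with an adjusted p of 0.00155 in edgeR's test. Lmnb1 (chr18:56707813-56753425) was at 24.9, 23.2 and 26.2 normalized CPM in mESCs and at 6.16, 13.8 and 15.8 in CPCCs, from 62, 114 and 138 counts. The groups did not overlap, but S05 and S06 were less than 2-fold below the mESC libraries. The log2 fold change of Lmnb1 was -1.06 (SE 0.34), or 2.08-fold lower, with an adjusted p of 0.0239 in edgeR's test, and this call was lost when any 1 mESC library was left out, at adjusted p-values of 0.0614 without S01, 0.0511 without S02 and 0.0686 without S03, the highest of a range that began at 0.00862 over all alternatives.

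Compared within a library, which removes the library size, Lmna made up 23.1%, 26.6% and 28.3% of the lamin counts in mESCs and 96.2%, 91.3% and 86.7% in CPCCs. The mean share rose from 26.0 ± 2.63% to 91.4 ± 4.71% (SD, n = 3 each), a difference of 65.4 percentage points that far exceeded the spread of either cell type, with the smallest exact permutation p that the design allows, 0.10. The ratio of Lmna to the summed B-type lamins was 0.301 to 0.395 in mESCs and was 24.9, 10.5 and 6.54 in S04, S05 and S06. Summed lamins rose from 93.9 ± 3.87 to 339.9 ± 64.7 normalized CPM, so more Lmna was gained than B-type lamin was lost. The ratio of Lmnb1 to Lmnb2 was 0.491 to 0.613 in mESCs and 0.667 to 0.832 in CPCCs, without overlap and with an exact permutation p of 0.10. Among the CPCC libraries, S04 had the highest Lmna and the lowest Lmnb1 and Lmnb2, and S06 the reverse. The summed pluripotency markers were 104 CPM in S04, 141 in S05 and 169 in S06, and their part in the B-type lamin levels was not tested.

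The calls and their directions were also read against the whole table. All 10 genes passed the threshold, but so did 61.4% of the 12471 genes tested, with nearly as many lower as higher, against 2 and 8 of these 10. The median log2 fold change of the 10 genes was 3.63, beside 0.03 over all genes tested. Vim, Nes, Krt8, Krt18 and Lmna lay above the 95th percentile of all genes, 3.62, whereas Lmnb1 and Lmnb2 lay between the lower quartile, -0.83, and the 5th percentile, -2.34. Des and Krt19 lay just under the 95th percentile, at 3.60 and 3.59.

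**Figure D3:**
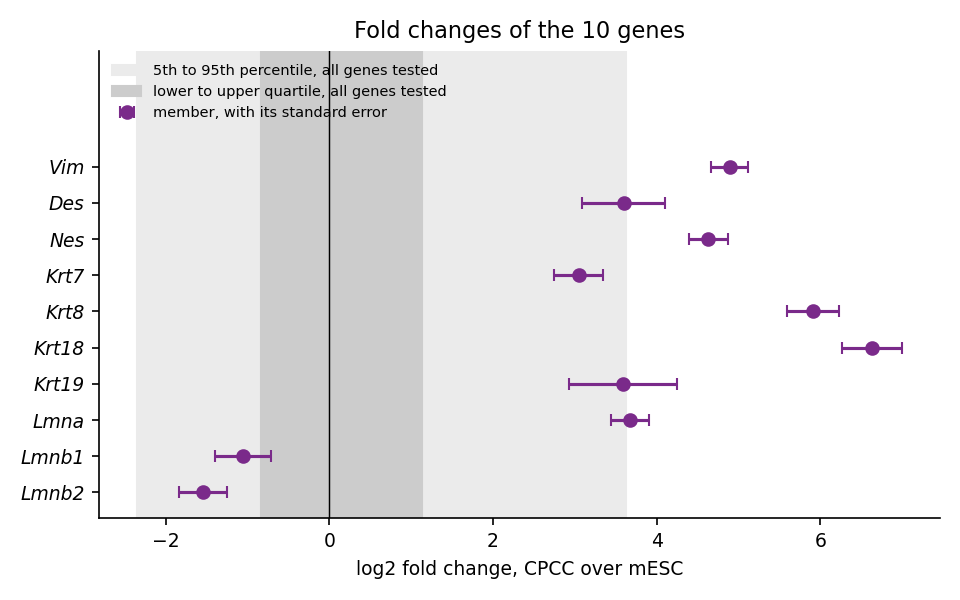
Log2 fold changes of CPCC over mESC for the 10 genes, with points for the estimate and bars for its standard error, on bands for the quartiles (dark) and the 5th to 95th percentiles (light) of all 12471 genes tested. Krt18 at 6.63 and Krt8 at 5.91 lie farthest right, and Lmnb1 at -1.06 and Lmnb2 at -1.54 are the only points left of 0.

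The shares, ratios and sums above used counts not divided by length. For the order of the genes, levels were compared per length, as normalized CPM per kilobase of merged exons. In mESCs Vim led at 45.4 ± 7.53 per kilobase, followed by Lmnb2 at 11.3 ± 0.615, Lmnb1 at 8.71 ± 0.518 and Lmna at 7.32 ± 1.01 (SD, n = 3 each). These first 4 did not overlap with their neighbours in the order. The other 6 genes were at 2.63 or less per kilobase, and each overlapped with the next. In CPCCs Vim led again at 1348 ± 283 per kilobase, and Krt18 at 207 ± 43.0 and Krt8 at 158 ± 46.6 came next and overlapped with each other. Lmna at 93.5 ± 22.3 and Nes at 58.5 ± 7.29 followed without overlap. Krt19 at 16.4, Des at 9.93 and Krt7 at 7.27 formed an overlapping run. The B-type lamins came last, at 4.20 ± 1.79 for Lmnb1 and 3.89 ± 1.41 for Lmnb2, so the genes that came next after Vim in mESCs were the lowest of the 10 in CPCCs.

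The other 4 lists placed the 10 genes among their relatives and partners. Of 25 other intermediate filament genes, 9 could be tested, and 2 of these were higher and 3 lower in CPCCs, with a median log2 fold change of -0.03 beside 0.03 over all genes tested. The keratin gene Krt42 fell most, from 92.2 ± 17.7 to 0.929 ± 0.638 normalized CPM (SD, n = 3 each), with a log2 fold change of -6.65 (SE 0.45) and an adjusted p of 5.92e-06 in edgeR's test. Keratins thus moved in both directions, with Krt42 and Krt17 (log2 fold change -2.53, SE 0.83, adjusted p = 0.0249 in edgeR's test) lower and the 4 keratins above higher, while Krt10 was at a log2 fold change of -0.01 and did not pass the threshold. Nefh, the heavy neurofilament subunit, fell with a log2 fold change of -3.84 (SE 0.49, adjusted p = 0.000183 in edgeR's test), and it was -4.57 without S06. Synm, encoding synemin, a partner of desmin and vimentin in muscle, rose from 1.00 ± 0.488 to 13.6 ± 5.84 normalized CPM, with a log2 fold change of 3.74 (SE 0.54, adjusted p = 0.000337 in edgeR's test). Krt20 was listed only in CPCCs, at 10.5, 3.40 and 4.36 normalized CPM, with a mean 13.6 times the level of 3 counts per mESC library. A further 6 genes of that list were listed only in CPCCs, 1 only in mESCs and 8 in neither table, among them the astrocyte filament gene Gfap.

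Of 18 genes for proteins that bind or anchor the filaments, 16 were tested, 11 were higher and 3 lower in CPCCs, and the median log2 fold change was 1.37. Cryab, a small heat shock protein that protects desmin filaments, was at 1.08, 1.47 and 0.439 normalized CPM in mESCs and at 259, 148 and 125 in CPCCs. It had the largest rise of these lists, with a log2 fold change of 7.46 (SE 0.45, adjusted p = 3.45e-06 in edgeR's test). Flnc, the muscle filamin of the Z-disc, was at 1.08 to 1.32 normalized CPM in mESCs and at 137, 67.8 and 65.0 in CPCCs, with a log2 fold change of 6.16 (SE 0.41, adjusted p = 5.25e-06 in edgeR's test). S04 was highest for both, as it was for Des. Dsg2, the desmoglein of simple epithelia and of the heart, fell from 204 ± 28.7 to 10.3 ± 3.32 normalized CPM (SD, n = 3 each), with a log2 fold change of -4.30 (SE 0.28, adjusted p = 4.54e-06 in edgeR's test). The desmosomal genes therefore did not share 1 direction, since Jup, Pkp2 and Dsc2 rose while Dsg2 and Pkp4 fell. Pkp1 was listed only in CPCCs, at 0.795, 4.24 and 1.60 normalized CPM, with a mean 4.95 times the level of 3 counts per mESC library.

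Of 17 lamina partners, 15 were tested, 4 were higher and 5 lower, and the median log2 fold change was -0.29. Lbr, the lamin B receptor, was at 859, 793 and 886 normalized CPM in mESCs and at 119, 199.8 and 323 in CPCCs. Among CPCC libraries it was lowest in S04 and highest in S06, the order of the B-type lamins, and it fell with a log2 fold change of -1.98 (SE 0.32, adjusted p = 0.000612 in edgeR's test). Nrm, an inner nuclear membrane protein, fell with a log2 fold change of -1.40 (SE 0.43, adjusted p = 0.0198 in edgeR's test), and its adjusted p was 0.056 without S02 and 0.0592 without S03, in a range of 0.000863 to 0.0592 over all alternatives. Sun2, which ties the lamina to the cytoskeleton, had a log2 fold change of 1.17 (SE 0.40, adjusted p = 0.0299 in edgeR's test). That call was lost when S01, S03, S04 or S05 was left out, at adjusted p-values of 0.0668 to 0.0968 (0.00719 to 0.0968 over all alternatives), and its value of 6.76 in S06 overlapped with mESCs. Mlip, whose protein binds lamins A and C, was listed only in CPCCs, at 3.28, 0.364 and 2.75 normalized CPM. Their mean was 4.76 times the level of 3 counts per mESC library, but the S05 value lay below that level.

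All 5 enzymes that process the lamin tail were tested, of which 2 were higher and 2 lower, with a median log2 fold change of -0.41. Zmpste24, the protease that cleaves prelamin A, rose from 26.6 ± 5.38 to 79.2 ± 17.9 normalized CPM (SD, n = 3 each), with a log2 fold change of 1.57 (SE 0.23, adjusted p = 0.000433 in edgeR's test). Icmt, which methylates the farnesylated tail, rose with a log2 fold change of 0.99 (SE 0.22, adjusted p = 0.00367 in edgeR's test). Fntb, the beta subunit of the farnesyltransferase, fell from 149 ± 33.2 to 42.6 ± 12.8 normalized CPM, with a log2 fold change of -1.81 (SE 0.27, adjusted p = 0.000446 in edgeR's test). Its alpha subunit Fnta fell too, and Rce1 did not pass the threshold, at a log2 fold change of -0.41 and an adjusted p of 0.218 in edgeR's test. These genes held members on both sides, with the protease higher in CPCCs, as Lmna was, and both transferase subunits lower.

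**Figure D4:**
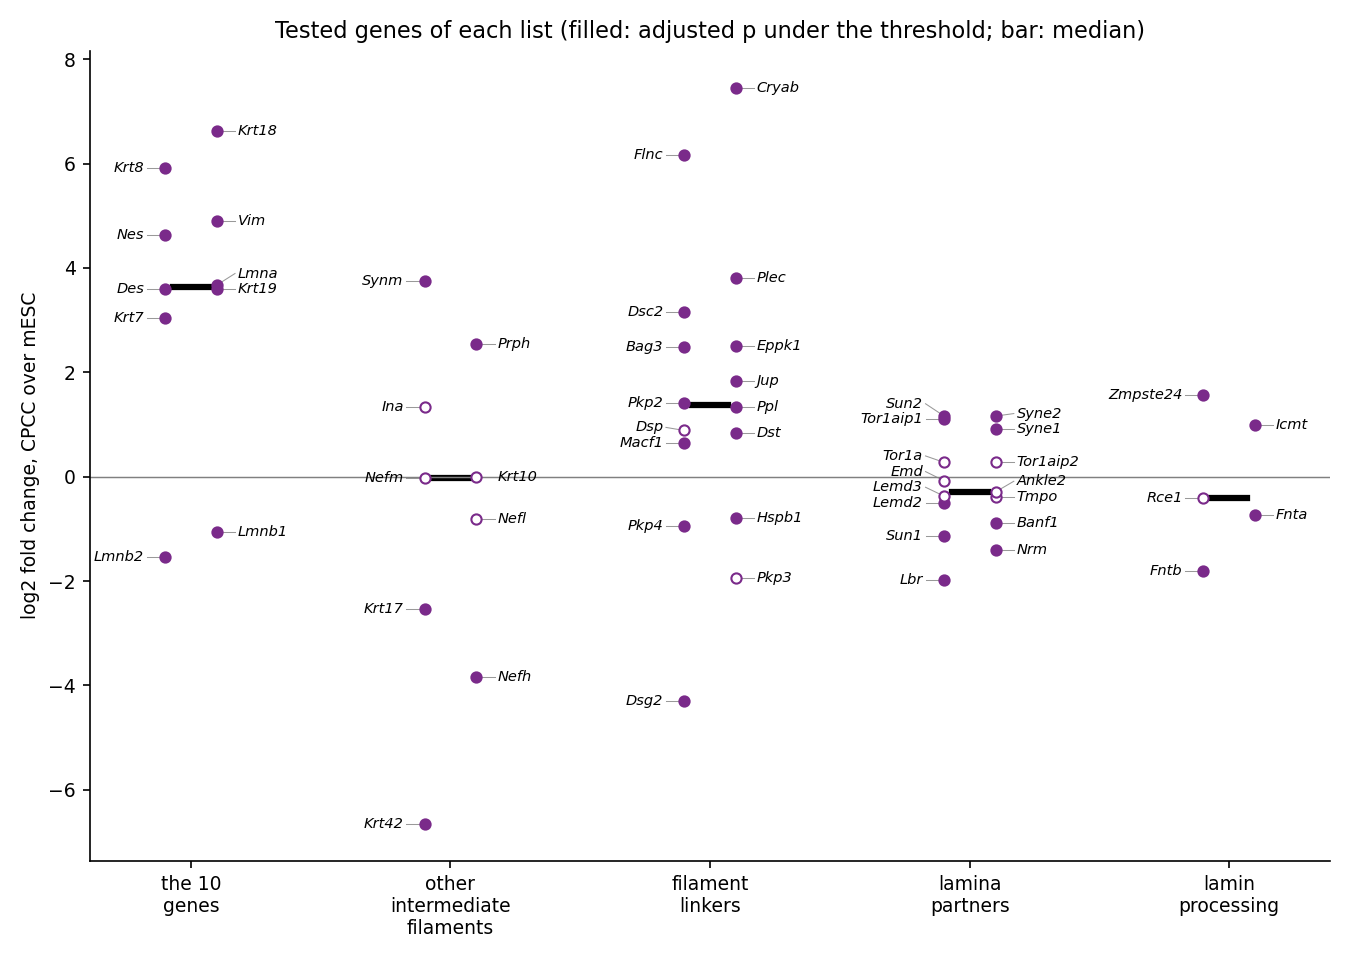
Log2 fold changes of CPCC over mESC for every tested gene of the 10 described here and of the 4 lists, with filled points for an adjusted p under 0.05, open points for the rest and a thick bar for the median of each list. The median is 3.63 for the 10 genes, 1.37 for the filament linkers and between -0.41 and -0.03 for the other 3 lists.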

How the data were processed

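Bulk RNA-seq was read from 2 tables, 1 per cell type, of 3 columns each. The authors deposited estimated counts per gene, without normalization and with both alleles pooled, of which 17.9% to 21.5% per library were not whole numbers. STAR 2.7 and mm10 are named in the submitters' processing notes, and the counter is not given in the sources used here. Each table lists only genes with at least 10 counts over its 3 libraries, and the end of many genes is 1 base past the last.

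Counts were rounded. Of the 13001 genes in both tables, edgeR's filterByExpr removed 530. The test was edgeR 4.0.16 (R 4.3.3), quasi-likelihood, TMM normalization over shared genes, Benjamini-Hochberg adjusted p under 0.05 over all genes tested. An SE is the size of the log2 fold change over the square root of F. A normalized CPM is a rounded count scaled to 1000000 of the TMM-adjusted library size, and 3 counts, the floor for genes missing from 1 table, are 0.298 to 0.463 CPM. Intervals from counts cover counting error only. Shares and ratios were compared with exact two-sided permutation tests. Exon lengths are merged exons of GENCODE M21 (GRCm38), found by symbol for 13585 genes. The 10 genes, the lists and the markers were chosen with earlier results of these data known. Besides the 10 genes, the text names the 3 genes past the threshold with the largest change of each list and, where its bound is at least 4-fold, the gene listed in 1 table with the largest bound. Krt17, Krt10, Gfap, Jup, Pkp2, Dsc2, Pkp4, Fnta, Rce1 and single markers were named after their values were seen. Alternatives were DESeq2 1.42.0, upper-quartile normalization, no TMM, whole-table library sizes, no filter, at least 10 counts in every library, a 2-fold threshold, missing genes at 0 or 3 counts and each library left out. The edgeR steps were tested on simulated data. The paper's methods name DESeq2 for bulk data.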

Additional observations from a re-analysis of the deposited data

How the results depend on the processing

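The 8 genes that rose in CPCCs kept their direction and their call under every alternative that could be fitted, as did Lmnb2. Of 15 alternatives, 11 called all 10 genes. The filter on at least 10 counts in every library removed Des and Krt19 from the test. The number of genes lower in CPCCs was 1 without S01, S02 or S03, where Lmnb1 lost its call, and ranged from 1 to 2 over the libraries left out, with log2 fold changes of Lmnb1 from -1.31 to -0.73. Over the libraries left out, the difference in the share of Vim ranged from -5.39 without S04 to 0.376 without S06, where its direction turned. With counts divided by exon length it was -7.55 percentage points, with an exact permutation p of 0.10 in place of 0.70. Other intermediate filaments past the threshold went from 5 to 3 with at least 10 counts in every library, and lamin processing genes from 4 to 2 with the 2-fold threshold, since Icmt and Fnta change less than 2-fold. Of 12 fitted genes named from the lists, 3 changed their call under an alternative (Nrm, Sun2, Icmt). Calls over the whole table ran from 6536 to 7895 as each library was left out. With 3 libraries a group, the shares cannot reach a permutation p under 0.10. Low mESC counts limit the fold changes of Krt18, Krt19 and Des. No paired analysis was possible because the columns carry no replicate numbers. Levels per coding length were not run.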
